A study of Homo sapiens with 2 samples.

Results

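The imsncRNA probes are 938 oligonucleotides of the array whose names start with RNA and hold the label imsncRNA, read here as intermediate-size noncoding RNA. They make up 938 of the 75149 probes that are not controls, and their names hold 848 different RNA numbers, each read here as 1 RNA. RNA came from THP-1, a human monocytic leukaemia cell line. The Con array carried RNA of control cells, and the LPS array carried RNA of cells stimulated with lipopolysaccharide (LPS), the glycolipid of the Gram-negative outer membrane that is sensed through TLR4. What the Con cells received is not settled: the treatment text, worded alike for both samples, names DMSO and LPS for 48 h without assigning DMSO to either, and the methods speak of untreated cells. No LPS dose is given in the sources used here. Each condition has 1 array, so no difference between Con and LPS has a replicate check. An SD given here is either between spots of 1 probe on 1 array, which is technical error, or between the differences of separate probes. Neither kind measures the scatter between cultures. Both arrays sit on the same slide, and the place of an array on it cannot be told apart from the treatment. The files name no probe by its gene, so the cell line was not checked against marker genes.

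Noncoding RNAs of intermediate size are longer than microRNAs and shorter than most lncRNAs. Known families of this size include the small nucleolar RNAs, which guide the chemical modification of ribosomal RNA, the small nuclear RNAs of the spliceosome, and the Y, vault and 7SK RNAs. Some are cut from the introns of host genes and others are made by RNA polymerase III, and many carry no poly(A) tail. For these arrays the RNA was primed with a mixture of oligo(dT) and oligo(dN), so that labelling could also start outside a poly(A) tail. The probe names do not say to which family an imsncRNA belongs.

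The names fall into 2 runs. Probes p0001 to p0458 carry ascending RNA numbers up to 848 and cover 368 RNAs, and from p0459 to p0938 the RNA numbers ascend once more and cover the other 480 RNAs, with no RNA in both runs. Every RNA of the second run has 1 probe. In the first run 70 RNAs have several probes, 160 in all: 59 RNAs have 2 probes, 5 have 3, 3 have 4 and 3 have 5. The RNAs with 4 or 5 probes have high numbers, from imsncRNA836 upwards. Probes with the same RNA number were read as probes of 1 RNA, which the sources used here do not state. They were not treated as replicates, and each probe kept its own value. Of the 938 probes, 808 were printed as 3 spots and 130 as 2 spots.

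Most imsncRNA probes gave a signal in both conditions. A probe was taken as detected where a majority of its spots without an outlier flag were well above background in the scanner software's own flag. On both arrays 826 imsncRNA probes were detected, which is 88.1% of them, against 81.8% of all probes. A further 66 were detected only with Con RNA and 5 only with LPS RNA, and 41 remained undetected, against 7480, 447 and 5757 of all 75149 probes. None of the 5 rose by 2-fold against the background bound, and the brightest of them on LPS, p0070_imsncRNA132, read 12.3 on Con and 21.5 on LPS. The median signal of the imsncRNA probes was 180 for Con and 194 for LPS, in background-subtracted intensity units of the scanner, with a middle range (25th to 75th percentile) of 59.5 to 609 on the Con array and 54.2 to 688 on the LPS array. The signal of a probe depends on how well the probe itself binds as well as on the amount of RNA. Signals of different probes were therefore used to sort probes by brightness and not read as relative amounts of RNA. No spot was saturated. The probes of the second run were detected on both arrays in 93.1% of cases and those of the first run in 82.8%.

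The RNAs measured by these probes showed little difference between Con and LPS cells. For each array the 75th percentile of log2 signal over all probes was subtracted, which lowered LPS by 0.13 (log2) relative to Con. After this, the median difference, LPS minus Con, over the 938 imsncRNA probes was -0.03 (log2), while the median over all probes was -0.13. The sign of the imsncRNA median depends on the scaling, since it was 0.09 with the 50th percentile and 0.10 without scaling, where the median over all probes was -0.01 and 0.00 (0.0026). The imsncRNA median lay 0.10 above that of all probes. These 3 scalings cannot change this gap, because each shifts all probes of an array alike. The gap was 0.07 with the normexp background correction, 0.03 after quantile normalization and 0.04 after cyclic loess. Among the imsncRNA probes detected on both arrays, 731 of 826 differed by less than 1.5-fold, or 88.5%, against 82.4% of all probes detected on both. The SD of their differences was 0.44 (log2), and repeated spots of 1 probe had a pooled SD of 0.15 on Con and 0.17 on LPS. Across these 826 probes Con and LPS log2 signals correlated with a Pearson r of 0.984, which describes probes of a wide range of brightness on 2 arrays and not samples.

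At a difference of at least 2-fold, the LPS array read higher for 3 imsncRNA probes and lower for 99. A fold was computed for the 897 imsncRNA probes detected on at least 1 array, of which 0.334% were called higher and 11.0% lower. Over all 69392 probes with a fold the shares were 0.783% higher and 16.5% lower, so neither share of the imsncRNA probes exceeded that of the whole array. Of the 99 lower calls, 61 rest on a bound, because the probe was not well above background on the LPS array. Their fold was computed with the probe's LPS signal or with 7.23, the dimmest signal detected on that array, whichever was higher. The background limit of a probe can lie above 7.23, so such a bound is not strict. For example, p0174_imsncRNA268 averaged 14.1 on LPS without being detected. The 61 folds, given below as at least where 7.23 was used, ran from 2.02 to 15.6, for Con signals of 13.3 to 108. With both arrays above background, 3 imsncRNA probes were higher and 38 were lower, or 0.363% and 4.60%, against 0.820% and 7.42% of all probes detected on both. The balance of calls moves with the normalization. Falls made up 97.1% of the imsncRNA calls here, but 42.2% after quantile normalization (26 higher, 19 lower) and 62.2% after cyclic loess (14 higher, 23 lower). Over all probes falls made up 95.5% of the calls here. They made up 56.1% after quantile normalization (2827 higher, 3610 lower) and 71.6% after cyclic loess (1648 higher, 4165 lower).

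The lower calls followed the brightness of the probes. All probes of the array were split by mean signal over both arrays into 10 brightness groups with equal numbers of probes. The 4 dimmest groups, with mean signals up to 78.2, held 295 imsncRNA probes and 97 of the 99 lower calls. A fall lowers the mean signal, so a probe that fell can move into a dimmer group by its own fall. There 32.9% of the imsncRNA probes were lower, against 34.2% of the other probes. In the 6 brighter groups 2 of 643 imsncRNA probes were lower, or 0.311%, against 2.68% of the other probes. Another 2 of the 643 were higher, the same share, against 0.949% of the other probes. When the groups were ranked on the Con signal alone, a choice made after the values were seen, 8 of the 640 imsncRNA probes in the 6 brighter groups were lower, or 1.25%, against 4.27% of the other probes. By mean signal the 2 lower ones were p0785_imsncRNA572 and p0124_imsncRNA201, both named for being the exceptions after the values were seen, and the 2 higher ones were p0104_imsncRNA176 and p0200_imsncRNA308. The median difference of the imsncRNA probes went from -1.79 (log2) in the dimmest group through -1.36, -0.51, -0.22 and -0.08 to -0.0012 in the sixth group and 0.09 in the brightest. The other probes went through nearly the same values, from -1.84 in the dimmest group to 0.03 in the brightest, and the widest gap between the medians of imsncRNA and other probes in any group was 0.11. In the 6 brighter groups the SD of the differences was 0.27 over the imsncRNA probes and 0.46 over the others.

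Each imsncRNA probe was therefore set beside all other probes with a mean signal within 0.5 (log2) of its own, a median of 8352 probes. The imsncRNA differences exceeded the median of these probes of like signal by a median of 0.04 (log2), and 519 of 938 probes, or 55.3%, lay above that median. Of the 826 probes detected on both arrays, 8 were at least 2-fold above the probes of like signal and 9 at least 2-fold below. These are 0.969% and 1.09%, against 1.99% and 3.89% of all probes detected on both. When only the other probes with RNA names served as the comparison, the median was -0.01 in place of 0.04.

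The steepest fall measured on both arrays was that of imsncRNA236, seen with both of its probes. The 3 spots of p0148_imsncRNA236 read 172, 189 and 218 on the Con array and 11.0, 19.3 and 32.0 on the LPS array. The 3 spots of p0149_imsncRNA236 read 113, 142 and 154 on Con and 6.71, 13.2 and 13.6 on LPS. For both probes every LPS spot lay far below every Con spot. After scaling the differences were -3.48 and -3.80 (log2), which is 11.1-fold and 14.0-fold lower with LPS. The probes of like signal had median differences of -0.25 and -0.46, and 0.20% and 0.24% of them fell further. On the LPS array 1 of the 3 spots of each probe was not well above background.

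The probes of imsncRNA272 gave a fall of similar size, with the LPS array below background. The 3 spots of p0176_imsncRNA272 read 99.4, 102 and 120 on Con and 6.39, 9.48 and 15.8 on LPS. For p0177_imsncRNA272 they read 95.9, 111 and 119 on Con, and 7.33 and 7.90 on LPS, where the remaining spot, at 12.1, carried an outlier flag. The probes averaged 107 and 108 on Con and 9.86 and 7.61 on LPS, and the folds computed with these signals were 11.9 and 15.6. Because the LPS signals were not well above background, the depth of these falls is uncertain. By measured difference 0.66% and 0.42% of the probes of like signal fell further, and their medians were -0.57 and -0.66 (log2).

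Of the imsncRNAs with 1 probe, imsncRNA572 and imsncRNA243 stood out among the falls measured on both arrays. The spots of p0785_imsncRNA572 read 487, 490 and 508 on Con and 158, 158 and 160 on LPS, a difference of -1.77 (log2) or 3.42-fold. This was the brightest imsncRNA probe that was called, its spots were tightly grouped on each array, and probes of like signal had a median difference of 0.00 (0.0031). Those of p0571_imsncRNA243 read 111, 122 and 131 on Con and 30.5, 35.9 and 39.4 on LPS, a difference of -1.92 or 3.79-fold. Its probes of like signal had a median of -0.23, and 2.27% of them fell further. These 2 probes and the 4 probes of imsncRNA236 and imsncRNA272 were the 6 imsncRNA probes called lower under the scaling to the 75th percentile, quantile normalization, cyclic loess and the normexp background correction alike.

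The other 4 of the 8 largest falls measured on both arrays were those of dim probes. The signal of p0204_imsncRNA312 went from 50.6 on Con to 15.3 on LPS, a difference of -1.86 (log2). That of p0442_imsncRNA844 went from 50.9 to 15.6, a difference of -1.84. For p0496_imsncRNA53 the signals were 50.9 and 16.8 and for p0587_imsncRNA289 they were 32.3 and 10.7, both with a difference of -1.73. In all 4 no LPS spot reached a Con spot after scaling. Among probes of like signal, however, 12.7% to 27.2% fell further than these, so that a fall of this size was common at their brightness. Under the normexp correction none of the 4 differed by 2-fold.

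The number and size of the rises depended on the normalization. With scaling to the 75th percentile the 3 probes called higher were p0678_imsncRNA439, p0200_imsncRNA308 and p0104_imsncRNA176. The 3 spots of p0678_imsncRNA439 read 20.5, 23.8 and 25.3 on Con and 62.1, 70.7 and 73.5 on LPS, a difference of 1.44 (log2) or 2.70-fold. Those of p0200_imsncRNA308 read 73.7, 92.3 and 117 on Con and 221, 248 and 265 on LPS, a difference of 1.26 or 2.40-fold. In each case every LPS spot was above every Con spot, and 99.7% and 99.1% of the probes of like signal rose less or fell. The 2 spots of p0104_imsncRNA176 read 82.4 and 85.9 on Con and 177 and 206 on LPS, a difference of 1.05 or 2.07-fold. All 3 were also called higher by quantile normalization, at 2.33, 1.41 and 1.22, and by cyclic loess, at 1.94, 1.30 and 1.11. None was called with the normexp correction, where their differences were 0.50, 0.87 and 0.66.

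The next 5 probes in the order of rises did not reach 2-fold. They were p0127_imsncRNA205, from 50.1 on Con to 107 on LPS (0.97 on the log2 scale), p0223_imsncRNA340, from 252 to 510 (0.88), p0402_imsncRNA818, from 195 to 359 (0.75), p0036_imsncRNA80, from 45.9 to 83.1 (0.72), and p0454_imsncRNA848, from 190 to 327 (0.65). The spots of p0402_imsncRNA818 overlapped between the arrays, reaching 301 on Con and starting at 292 on LPS, and those of the other 4 did not. Just inside the threshold for a fall lay p0448_imsncRNA846 (-1.01) and, by its bound, p0413_imsncRNA828 (-1.01), and just outside it p0710_imsncRNA481 (-0.99) and p0491_imsncRNA40 (-0.98).

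The RNAs with several probes show how far separate oligonucleotides for 1 RNA moved together. In 50 of the 70 RNAs every probe was detected on both arrays. In 14 of these 50 all probes were above 0, in 18 all were below 0, and in the other 18 the signs differed. Of these 50 RNAs 45 have 2 probes, whose signs can agree without any shared change, and that rate was not estimated. Many of the differences are small, so their signs also depend on the scaling. The differences of the probes of 1 RNA spanned a median of 0.18 (log2). Over 86 pairs of probes for the same RNA the median gap between differences was 0.22, and over the 8042 pairs from different RNAs of the same set it was 0.34, values that describe pairs sharing probes and that carry no test. The Con signals of the probes of 1 RNA, in contrast, spanned a median of 1.90-fold and up to 36.1-fold, in imsncRNA795.

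Among the probes of the 70 RNAs, 26 of the 146 with a fold were lower. This is 17.8%, near the 16.5% of all probes with a fold. Of the 70 RNAs, 55 had no probe called and 15 had at least 1 probe called lower. In 9 of the 15 every probe was called, and in the other 6 a single probe was. Besides imsncRNA236 and imsncRNA272, the RNAs with every probe lower were imsncRNA20, imsncRNA135, imsncRNA186, imsncRNA312, imsncRNA372, imsncRNA832 and imsncRNA844. Of all 9, imsncRNA236, imsncRNA272 and imsncRNA372 kept every probe lower under quantile normalization and under cyclic loess, and the other 6 lost at least 1 call under each, with bounds applied as above. The normexp correction left imsncRNA236 and imsncRNA272, but with its offset of 50 the dimmer probes of the other RNAs could hardly reach 2-fold. The probes of imsncRNA372 read 49.5 and 55.5 on Con and 5.88 and 3.53 on LPS, not well above background there, falls of at least 7.51-fold and at least 8.42-fold. Both probes of imsncRNA186 were detected on both arrays and read 56.7 and 43.4 on Con and 25.4 and 15.7 on LPS, with differences of -1.29 and -1.60 (log2). Of the probes of like signal 16.8% and 20.1% fell further than these 2. For imsncRNA312 the 3 probes read 19.0, 50.6 and 23.6 on Con, and 1 of them was detected on LPS. Their falls were at least 2.87-fold, 3.64-fold and at least 2.88-fold. For imsncRNA844, again with 1 of 3 probes detected on LPS, the falls were at least 3.09-fold, 3.59-fold and at least 3.79-fold. The probes of imsncRNA20 read 22.3 and 20.5 on Con and 2.23 and 2.38 on LPS, and those of imsncRNA135 read 27.1 and 15.7 on Con and 2.18 and 3.76 on LPS. For imsncRNA832 the signals were 71.9 and 21.2 on Con and 34.1 and 2.61 on LPS. At these low signals a fall was the usual outcome, and the median measured difference of the probes of like signal, background signals included, was -2.44 (log2) for both probes of imsncRNA20. Among RNAs with 1 probe, p0508_imsncRNA78 had the highest lower bound, with signals of 54.6 and 6.68 and a fall of at least 8.28-fold. It was picked after its value was seen, and a bound does not rank the depth of falls.

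In the other 6 RNAs 1 probe was called and the rest were not, in some because they were below background on both arrays. Of imsncRNA291, p0191_imsncRNA291 fell from 52.6 to 5.94, below background and at least 7.98-fold, while p0192_imsncRNA291 read 253 on Con and 164 on LPS, a difference of -0.76 (log2) that was not called. Of imsncRNA828, p0413_imsncRNA828 read 13.3 on Con and 2.73 on LPS, while p0414_imsncRNA828 and p0415_imsncRNA828 read 212 and 518 on Con and 198 and 612 on LPS, with differences of -0.23 and 0.11. The 5 probes of imsncRNA846 were all below 0, from -1.01 to -0.07, and 1 of them was called. The 5 probes of imsncRNA848 went both ways: p0454_imsncRNA848 and p0457_imsncRNA848 had differences of 0.65 and 0.62, p0458_imsncRNA848 had 0.05, p0455_imsncRNA848 was called lower at -1.06, and p0456_imsncRNA848 was below background on both arrays. The brighter probes of imsncRNA848 were those that read higher with LPS, 190 on Con against 327 on LPS and 877 against 1482. In imsncRNA188 p0115_imsncRNA188 was called lower, with signals of 18.0 and 6.47, while p0114_imsncRNA188 was detected on neither array and could not be called. The called probe in imsncRNA845 was p0445_imsncRNA845, with signals of 58.6 and 28.3. Of its other 3 probes p0444_imsncRNA845 had a difference of -0.88 and the rest were detected on neither array.

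In some RNAs the probes gave nearly the same difference. The 3 probes of imsncRNA743 read 340, 446 and 427 on Con and 418, 555 and 549 on LPS, and their differences were 0.17, 0.18 and 0.23 (log2). Those of imsncRNA6 read 5004 and 6904 on Con and 5909 and 8228 on LPS, with differences of 0.11 and 0.12. The 5 probes of imsncRNA843 ranged more widely, from 269 to 3632 on Con, and their differences lay between -0.30 and 0.00 (-0.0047). These 3 RNAs were picked after their values were seen.

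The brightest imsncRNA probes hardly differed between the arrays. The highest signals were those of p0802_imsncRNA596, with 100122 on Con and 105536 on LPS, p0722_imsncRNA497, with 82121 and 90299.7, and p0407_imsncRNA822, with 73811 and 80263, the last with 1 spot free of an outlier flag on each array. After scaling their differences were -0.06, 0.00 (0.0037) and -0.01 (log2). The next were p0509_imsncRNA82, p0597_imsncRNA306, p0536_imsncRNA143, p0849_imsncRNA655 and p0392_imsncRNA810, with Con signals between 22344 and 46211 and differences between -0.13 and 0.12. The scaled spots of 7 of the 8 probes overlapped between the arrays, and the eighth had too few spots to compare.

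Beside the other classes of RNA probes on the array, the imsncRNA probes had intermediate shares of lower calls. The 306 probes labelled snoRNA or scaRNA, which stand for guides of RNA modification, had a median difference of -0.07 (log2), with 0 higher and 36 lower, or 12.0% of those with a fold. The 141 labelled snRNA had a median of -0.32, with 0 higher and 31 lower, or 25.2%. The 1246 labelled RNS, a label whose meaning is not given in the sources used here, had a median of 0.02, with 0 higher and 79 lower, or 6.64%, and the 99 labelled tRNA a median of -0.12, with 0 higher and 9 lower, or 9.38%. These classes differ in brightness, and the differences between them were not tested, because each condition has 1 array. Relative to probes of like signal the medians were 0.04 for imsncRNA, 0.07 for RNS, -0.04 for snoRNA and scaRNA, -0.05 for snRNA and -0.10 for tRNA.

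Spots also show how firmly small differences were resolved. With at least 2 spots on each array and both arrays above background, 823 imsncRNA probes could be compared spot by spot after scaling. In 200 of them, or 24.3%, every LPS spot was above every Con spot, against 24.0% of all probes compared. In 225, or 27.3%, every LPS spot was below every Con spot, against 38.6% of all probes. These shares are not like for like, since 808 of the 938 imsncRNA probes had 3 spots, against 25608 of all 75149 probes. Spots can separate fully without any difference, more easily with 2 spots than with 3, and that rate was not estimated. Many probes with differences far below 2-fold had separate spots, which says nothing of the scatter between cultures. The median spot difference of the imsncRNA probes detected on both arrays lay between -0.02 and 0.03 (log2) in the 4 quadrants of the array, and that of the other probes between -0.07 and -0.05.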

How the data were processed

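RNA of THP-1 cells was measured on 1 Con and 1 LPS array in 1 colour (Cy3). The authors deposited, per array, spot intensity values from Agilent Feature Extraction 11.5.1.1, background-subtracted and detrended by that software and not scaled between arrays, with flags of 0 or 1, and a table of processed intensity per probe, which holds 870 of the 938 members. Conditions came from the sample labels. Members were found by probe name. The members and lists were chosen with earlier results of these data known.

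Control spots and spots with an outlier flag (1.71% on Con, 1.93% on LPS) were left out, except that a probe whose spots were all flagged kept them (1 member, on LPS). Log2 intensities were averaged per probe, the 75th percentile over 75149 probes was subtracted, and calls were made at 2-fold. With 1 array per condition no test was run, and precision is limited by having 2 arrays in all. The probes named are the 8 largest rises and the 8 largest falls among 823 members detected on both arrays with at least 2 spots kept on each, the 8 brightest, those nearest the threshold, and called probes of RNAs with several probes. Exceptions are marked in the text.

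Alternatives were normexp with an offset of 50 on median spot and background intensities, quantile normalization and cyclic loess (limma 3.58.1, R 4.3.3), other scalings, filters, thresholds, windows and the processed table. Python 3.11.15, numpy 2.4.6 and pandas 2.3.3 were used, and the scripts were tested on simulated data. Gene lists for small RNA machinery, cell type markers and the LPS response, 76 genes in all, matched 0 probe names and gave no values. Sequences, genome positions and host genes of the probes were not analysed here.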

Additional observations from a re-analysis of the deposited data

How the results depend on the processing

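The number of imsncRNA probes called depended on background correction, normalization, filter and threshold. Against 3 higher and 99 lower, the normexp correction gave 0 higher and 6 lower, quantile normalization 26 and 19, and cyclic loess 14 and 23. All 6, 19 and 23 lower probes were among the 99. Over all probes 543 were higher and 11473 lower with the scaling used here. The counts were 312 and 1314 with normexp, 2827 and 3610 after quantile normalization, and 1648 and 4165 after cyclic loess. The offset of 50 in normexp is added to every intensity and so shrinks differences of dim probes by construction. The 50th percentile and no scaling each gave 5 higher, against 729 and 754 over all probes. Requiring detection in both conditions gave 38 lower, requiring a signal of 100 in the brighter condition gave 8 lower, 1.5-fold 16 higher, 3-fold 0 higher and 47 lower, and 4-fold 0 higher and 21 lower. Over all probes, detection in both conditions gave 4562 lower and a signal of 100 gave 1568 lower. The thresholds gave, over all probes, 1794 higher at 1.5-fold, 214 higher and 6163 lower at 3-fold, and 108 and 3405 at 4-fold. The other alternatives kept both imsncRNA counts within 1.5 times.

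Under quantile normalization 16 of the 102 called probes changed sign, among them p0115_imsncRNA188 to 0.22, p0203_imsncRNA312 to 0.22 and p0455_imsncRNA848 to 0.25 (log2), under cyclic loess 4 did and under normexp 0, and the cause was not tested. In the 6 brighter groups 2 imsncRNA probes were lower by mean signal, 2 by LPS signal, 8 by Con signal and 8 by the brighter array's signal. The shares were 0.311%, 0.306%, 1.25% and 1.26%, against 2.68%, 1.84%, 4.27% and 4.03% of the other probes. The rankings other than that by mean signal were added after seeing the data. The median difference ran from -0.10 to 0.10, changing sign with the scaling, and its value relative to probes of like signal from -0.01 to 0.04. With the scanner's less strict detection flag 891 probes, in place of 826, counted as detected in both conditions. No paired analysis was possible because each condition has 1 array. Signal over background limits the falls of dim probes, 61 of which rest on a bound and not on a detected LPS signal.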
